A study of Sorghum bicolor with 9 samples.

Results

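The genes described here had a sharp expression peak at the microspore stage of sorghum (Sorghum bicolor) anthers. Whole anthers of the field-grown cultivar M35-1 were sequenced at 3 stages, with 3 libraries per stage made with a stranded total RNA kit. By anther length, stage A1 spans meiosis to the tetrad, stage A2 the tetrad to the microspore, and stage A3 is the pollen stage. A2 is called the microspore stage below. All groups share genotype, field and organ, and the labels name the tissue as male gametophyte although the source of each library is the anther. The replicates were combined by the authors into 1 FPKM value (fragments per kilobase of transcript, scaled to the total of mapped fragments) per locus and stage, so no value below carries a replicate error and no difference between stages was tested. Read counts were not used here, and the depth behind each value is unknown from these values.

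Members were chosen on the FPKM values themselves, by 3 limits. A locus had to reach 10 FPKM at A2, and its A2 value had to be at least 4-fold its A1 value and at least 4-fold its A3 value, with 0.5 FPKM added to each value before division. Of 33115 loci with a gene ID, 30776 were above 0 in some stage and 80 met the limits, which is 0.26% of those 30776. After 7 of the 80 were left out by name, 73 loci with 85 gene IDs remained. Because the stage values chose these loci, their peak and its size are given as a description.

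In the microspore stage, young microspores are released from the tetrad as the callose around them is dissolved. The tapetum, the innermost layer of the anther wall, supplies the enzymes for that release and the lipid precursors of the outer pollen wall, and later breaks down. A whole anther therefore holds microspores, tapetum and outer wall layers, and in such bulk samples fewer cells of a type and less RNA per cell cannot be told apart.

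Such a peak was less frequent than a pollen-stage peak and more frequent than a meiotic-stage peak. By the same limits applied to A3, 1433 loci (4.66%) peaked at A3, and by those applied to A1, 6 loci (0.0195%) peaked at A1. The highest of the 6 A1 peaks, Sobic.003G209500, stood at 67.2 FPKM at A1, 5.19 at A2 and 2.05 at A3. The smaller of the 2 log2 folds had a median of 3.54 over the 73 microspore-stage loci, 3.95 over the A3 peaks and 2.47 over the A1 peaks. The top value itself had a median of 70.4 FPKM over the microspore-stage loci, 35.4 FPKM over the A3 peaks and 19.5 FPKM over the A1 peaks.

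The step between A1 and A2 was the rarer of the 2 folds. Over all 30776 loci, 332 (1.08%) had an A2 value at least 4-fold that of A1, against 1594 (5.18%) at least 4-fold higher at A2 than at A3, and 219 (0.712%) passed both folds at any level. Among the 8948 loci at 10 FPKM or more at A2, 119 (1.33%) were at least 4-fold higher at A2 than at A1. Of these 119, 80 were also at least 4-fold higher at A2 than at A3, 9 had an A2 value lower than their A3 value by 4-fold or more (as did 8.22% of all loci), and 30 lay between. The plot of both folds shows the microspore-stage loci in a thinly filled corner above the mass of loci with like values at A1 and A2.

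**Figure D1:**
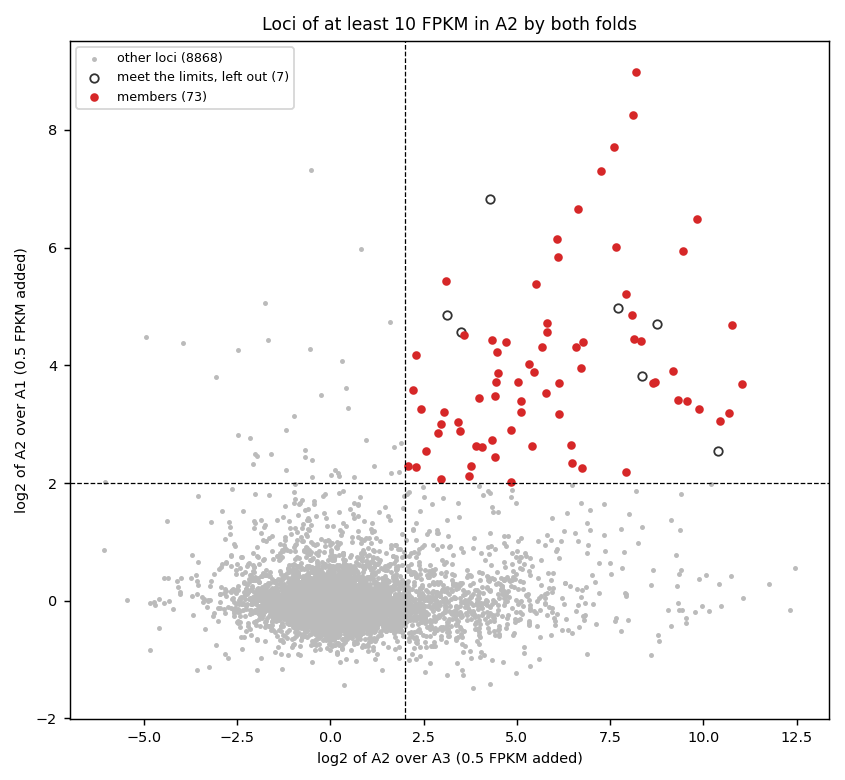
Each point is 1 of the 8948 loci with a gene ID at 10 FPKM or more at A2, by the log2 of A2 over A3 (horizontal) and the log2 of A2 over A1 (vertical), both with 0.5 FPKM added. Red points are the 73 loci described here, open circles the 7 left out by name, and dashed lines mark the 4-fold limits; the 2 loci listed at 0 in A3 are placed by the added 0.5 FPKM.

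Over the 73 loci the median FPKM was 5.60 at A1, 70.4 at A2 and 0.245 at A3. Over all 30776 loci the same medians were 1.61, 1.78 and 2.17 FPKM. The 73 loci covered 0.00433 to 312 FPKM at A1, 10.6 to 2560 FPKM at A2 and 0 to 237 FPKM at A3, so some stood higher outside the microspore stage than others did within it. They held 0.299% of the summed FPKM of loci with a gene ID at A1, 3.06% at A2 and 0.0789% at A3. A few loci carried most of that sum, since the 12 highest held 65.0% of the A2 sum of the 73. Without the single highest locus, the shares were 0.243% at A1, 2.62% at A2 and 0.0438% at A3. At A2, 33 of the 73 loci reached 100 FPKM and 5 reached 1000 FPKM, and 9 of them were among the 100 most abundant loci of that stage.

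The fold over A3 was mostly the larger. The median fold of A2 over A1 was 13.1, with a range of 4.04 to 509. The median fold of A2 over A3 was 50.8, with 4.24 as its lowest value and 2088 as its highest. For 2 loci listed at 0 in A3 that fold is set by the added 0.5 FPKM, and without them the median was 45.5. At least 8-fold was reached over A1 by 53 loci and over A3 by 64, and over both by 50. At least 32-fold over both was reached by 12 loci. In 58 of the 73 loci the A1 value was above the A3 value, and in 15 it was below. The same order was not counted over all loci, so it is not shown to be particular to the 73.

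**Figure D2:**
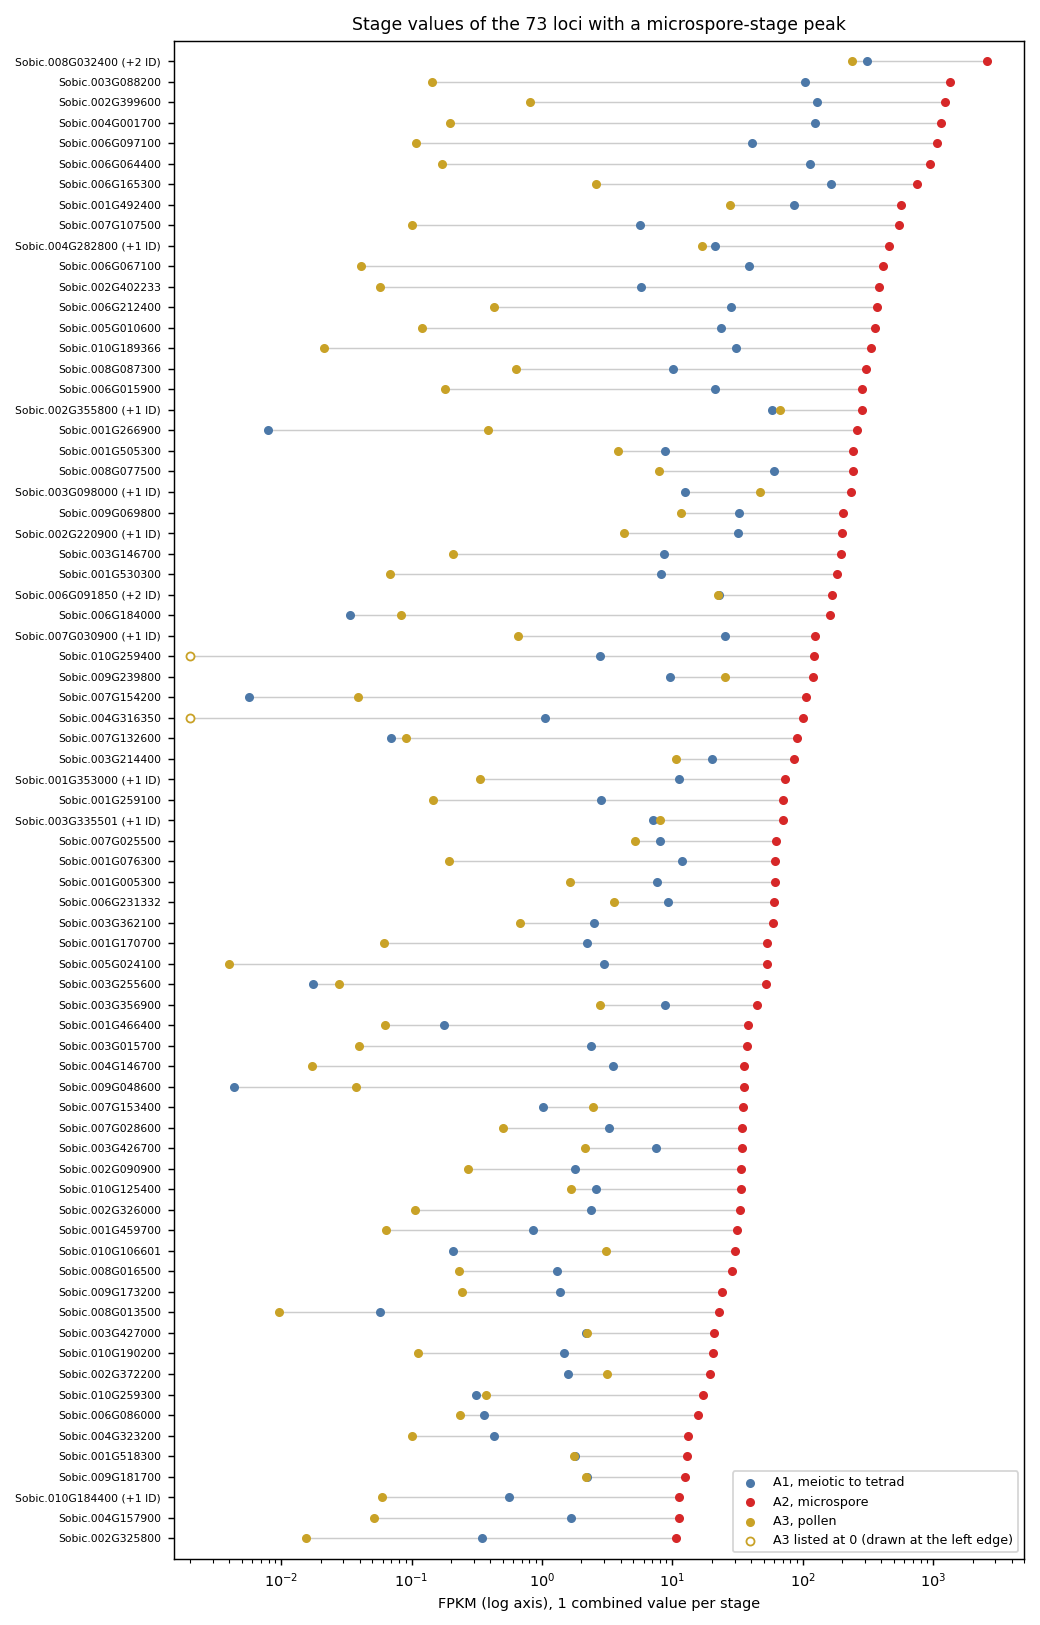
FPKM of each of the 73 loci at A1 (blue), A2 (red) and A3 (yellow) on a log axis, 1 combined value per stage, ordered by the A2 value; labels such as "+2 ID" mark loci with further gene IDs. Red points run between 10.6 and 2560 FPKM, and for 58 loci the A1 point lies to the right of the A3 point.

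The loci were sorted by whether their other stages reached 1 FPKM. In 14 loci (19.2%) both A1 and A3 were under 1 FPKM, in 33 (45.2%) only A3 was under 1 FPKM, in 25 (34.2%) neither was, and Sobic.010G106601 alone was under 1 FPKM at A1 and not at A3. Of all 8948 loci at 10 FPKM or more at A2, 15 (0.168%) were under 1 FPKM in both other stages, 328 (3.67%) only at A3, and 8596 (96.1%) in neither. Any locus of the first kind passes both folds by the rule itself. Those 15 are the 14 above and Sobic.002G344400, which was left out by name, so the 2 shares are not independent. A locus of the second kind always passes the fold over A3. The A2 median was 33.4 FPKM for the loci under 1 FPKM in both other stages, 122 FPKM for those that also reached 1 FPKM at A1, and 86.0 FPKM for those at 1 FPKM or more in every stage. Across the 73 loci the A1 and A2 values ranked alike (Spearman coefficient 0.749), while the A2 and A3 values did so weakly (0.194). Over the 8948 loci these coefficients were 0.927 and 0.604. All of these points share the same libraries, and the limits of the rule narrow the range over which the 73 can vary.

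The highest value belonged to a locus with 3 gene IDs, Sobic.008G032400, Sobic.008G032500 and Sobic.008G032600 (chromosome 8, 2879099 to 2906240). It stood at 312 FPKM at A1, 2560 at A2 and 237 at A3, an 8.19-fold higher value at A2 than at A1. It was also the highest of the 73 in both other stages, so its value was high throughout, and which of its 3 genes gave the value cannot be told from 1 value per locus. All positions here are on sorghum genome v3.0.1.

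The next 5 loci by A2 value had a common course, with 40.8 to 128 FPKM at A1 and less than 1 FPKM at A3. Sobic.003G088200 (chromosome 3, 7663274 to 7665433) stood at 104 FPKM at A1, 1345 at A2 and 0.144 at A3, and its 2088-fold higher value at A2 than at A3 was the largest of the 73. Sobic.002G399600 (chromosome 2, 75060918 to 75062646) stood at 128, 1226 and 0.807 FPKM at A1, A2 and A3. Sobic.004G001700 (chromosome 4, 146713 to 150124) stood at 125, 1147 and 0.197 FPKM in that order of stages. These loci were abundant already at A1 and close to 0 at A3. Sobic.006G097100 (chromosome 6, 46696391 to 46704587) had 40.8 FPKM at A1, 1060 at A2 and 0.109 at A3. Sobic.006G064400 (chromosome 6, 42410623 to 42412380) had 113 FPKM at A1, 939 at A2 and 0.172 at A3. The folds of these 5 loci over A1 ran between 8.28 and 25.7, against 939 to 2088 over A3.

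Of the other loci among the 12 highest, 3 had a larger remainder at A3. Sobic.006G165300 (165, 755 and 2.59 FPKM at A1, A2 and A3) lay close to the limit over A1, at 4.55-fold. Sobic.001G492400 had 85.0 FPKM at A1, 566 at A2 and 27.5 at A3. The locus of Sobic.004G282800 and Sobic.004G282900 had 21.2 FPKM at A1, 455 at A2 and 16.8 at A3. The last 3 of the 12 were nearly unseen at A3. Sobic.007G107500 (chromosome 7, 38853337 to 38853834), whose span of 498 bases was the shortest of the 73, had 5.60, 545 and 0.101 FPKM at A1, A2 and A3. Sobic.006G067100 had 38.6, 411 and 0.0407 FPKM in the same order. Sobic.002G402233 had 5.77 FPKM at A1, 386 at A2 and 0.0574 at A3, and the only RefSeq entry in its span is a pseudogene.

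A different set of loci had the largest folds over A1, because their A1 values were close to 0. Sobic.001G266900 (chromosome 1, 50851942 to 50852821) had 0.00794 FPKM at A1, 258 at A2 and 0.388 at A3, a 509-fold higher value at A2 than at A1. Sobic.006G184000 (chromosome 6, 53904469 to 53907381) had 0.0338, 162 and 0.0832 FPKM at A1, A2 and A3, a fold of 305 over A1. Sobic.007G154200 (chromosome 7, 58728241 to 58729764) had 0.00567, 105 and 0.0387 FPKM in that order, a fold of 209. Each of these 3 loci was above 100 FPKM at A2 and under 0.5 FPKM on either side of it. Sobic.007G132600 had 0.0688 FPKM at A1, 89.6 at A2 and 0.0912 at A3. Sobic.003G255600 had 0.0174 FPKM at A1, 51.9 at A2 and 0.0279 at A3. Their folds over A1 were 158 and 101, and with A1 under 0.1 FPKM all such folds depend mainly on the 0.5 FPKM that was added.

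Of the 10 largest folds over A1, 5 more were between 57.1 and 89.4. They belonged to Sobic.007G107500 and Sobic.002G402233, given above, to Sobic.001G466400, given below with its family, and to 2 loci that overlap no RefSeq gene. One of these, Sobic.009G048600, had 0.00433 FPKM at A1, 35.4 at A2 and 0.0373 at A3. The other, Sobic.004G316350, had 1.05 FPKM at A1 and 100.03 at A2, and was listed at 0 in A3.

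Among the 10 largest folds over A3, 2 loci have not been named yet. Sobic.010G189366 had 30.6 FPKM at A1, 332 at A2 and 0.0213 at A3, and its span holds only a pseudogene of RefSeq. Sobic.005G010600 had 23.6 FPKM at A1, 360 at A2 and 0.119 at A3. A value at A3 under 0.5 FPKM was found in 42 of the 73 loci, against 13 loci under 0.5 FPKM at A1. The limit over A3 itself favours low A3 values, and the share of all loci under 0.5 FPKM was not counted. Only 9 loci were at 10 FPKM or more at A3, with folds of A2 over A3 between 4.24 and 26.3.

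Product descriptions came from the best rice and Arabidopsis matches that the study lists for its differentially expressed genes. The part of that list used here held 1594 genes, all on chromosomes 1 and 2. Of the 20 microspore-stage loci on these chromosomes, 11 are in that list, 1 of them (Sobic.001G518300, 1.79, 12.8 and 1.76 FPKM at A1, A2 and A3) with no family assigned here. The others did not match a listed gene, Sobic.001G266900 and Sobic.001G492400 among them. A locus with several gene IDs could not match, because whole ID strings were compared. That does not apply to loci with 1 gene ID, which are absent from the part of the study's list used here. These are Sobic.001G266900, Sobic.001G492400, Sobic.001G530300, Sobic.002G326000, Sobic.002G399600 and Sobic.002G402233. For loci without a match, no call by the study's own comparison of stages is therefore shown here. These 1594 genes were selected by the study on the same samples, and 62 of them (3.89%) were at least 4-fold higher at A2 than at A1, so the list is richer in such genes than the 1.08% of all loci. The roles below are those of the matched families in Arabidopsis or rice.

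Proteases of 2 classes were represented. Sobic.001G170700 matches a subtilase, a serine protease of the secreted subtilisin-like family, and had 2.22 FPKM at A1, 53.5 at A2 and 0.0610 at A3. It was the only 1 of 8 listed subtilases at least 4-fold higher at A2 than at A1, and 5 of the 8 were highest at A3. Sobic.002G325800 matches an aspartyl protease, an enzyme that cuts proteins with a pair of aspartates in its active site, and had 0.346 FPKM at A1, 10.6 at A2 and 0.0154 at A3. Of 5 listed aspartic proteases 2 were at least 4-fold higher at A2 than at A1, the other being Sobic.002G222700 (5.18, 177 and 0.347 FPKM), one of the loci left out by name.

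Enzymes acting on sugars and cell walls gave 3 loci. Sobic.001G466400 matches a family 10 glycosyl hydrolase, a family that includes xylanases, and had 0.176 FPKM at A1, 38.1 at A2 and 0.0628 at A3. The other 2 listed genes of that family were highest in other stages, Sobic.001G439400 at 24.5, 19.4 and 0.111 FPKM and Sobic.001G466100 at 0.0409, 0.0577 and 58.3 FPKM at A1, A2 and A3. Each of the 3 stages was therefore the highest for 1 of these 3 genes. Sobic.001G459700 matches a UDP-glycosyltransferase, an enzyme that attaches sugars to small molecules, and had 0.851 FPKM at A1, 31.3 at A2 and 0.0636 at A3. Of 14 listed UDP-glycosyltransferases it alone was at least 4-fold higher at A2 than at A1, and the other 13 were highest at A3. Outside these chromosomes, Sobic.008G016500 is named in the study's text as a putative rhamnogalacturonate lyase, which cuts the backbone of a pectin. It had 1.296 FPKM at A1, 28.6 at A2 and 0.230 at A3.

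Genes tied to hormones, oxidation and phosphate also gave 1 locus each. Sobic.001G005300 matches gibberellin 20-oxidase 2, an enzyme of the late steps of gibberellin synthesis, and had 7.67 FPKM at A1, 60.9 at A2 and 1.64 at A3. The other 3 listed genes with a gibberellin 20-oxidase as their rice match were not higher at A2 than at A1. Their folds of A2 over A1 lay between 0.896 and 0.963. Sobic.002G090900 matches a cytochrome P450 of family 83, heme enzymes that oxidise small molecules, and had 1.79 FPKM at A1, 33.4 at A2 and 0.269 at A3. Of 25 listed cytochromes P450 3 were at least 4-fold higher at A2 than at A1, and 17 were highest at A3. Besides Sobic.002G090900, the 3 were Sobic.001G491400, which was left out by name, and Sobic.002G348900. The latter had 0.380, 4.82 and 9.96 FPKM at A1, A2 and A3 and was highest at A3. Sobic.001G259100 matches SPX domain gene 1, whose product senses phosphate status in Arabidopsis, and had 2.85 FPKM at A1, 70.4 at A2 and 0.146 at A3. A listed phosphate transporter, Sobic.001G502100, stood at 8.98 FPKM at A1, 32.9 at A2 and 7.58 at A3, which is 3.52-fold over A1 and below the limit.

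Signalling and protein turnover were represented by 2 loci. Sobic.001G505300 matches a zinc finger protein with CHY and RING domains, of which the RING domain is found in ubiquitin ligases, and had 8.78 FPKM at A1, 243 at A2 and 3.83 at A3. It was the only 1 of 24 listed RING and CHY zinc finger genes at least 4-fold higher at A2 than at A1, and 16 of the 24 were highest at A3. Sobic.001G076300 matches calmodulin-like 41, a calcium-binding protein of the EF-hand type, and had 11.7 FPKM at A1, 61.6 at A2 and 0.194 at A3. It was the only 1 of 5 listed calmodulin-like and EF-hand genes past that fold. The remaining described locus, Sobic.002G372200, matches an alpha/beta hydrolase and had 1.58 FPKM at A1, 19.4 at A2 and 3.16 at A3.

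Other families looked up in the list held no microspore-stage locus of chromosomes 1 and 2. The putative rhamnogalacturonate lyase Sobic.008G016500, given above, lies outside these chromosomes and is not counted. At least 4-fold higher at A2 than at A1 were 2 of 13 lipid transfer proteins, 1 of 6 GDSL lipases, 1 of 3 pectin-cleaving or pectin-demethylating enzymes, 1 of 4 sugar transporters and 1 of 11 glutathione S-transferases. Both lipid transfer proteins and the glutathione S-transferase are among the 7 loci left out by name, and the sugar transporter Sobic.002G338500 (6.31, 76.7 and 91.0 FPKM at A1, A2 and A3) was higher still at A3. None of 6 NAC, 9 MYB and 9 bHLH transcription factors passed the fold. The nearest of these was the MYB gene Sobic.001G183100 with 7.83 FPKM at A1, 31.9 at A2 and 1.53 at A3, a fold of 3.89. Even so, 3 of the 6 NAC and 2 of the 9 MYB genes were highest at A2, and none of the bHLH genes. Those 3 NAC genes had 0.0907 to 0.284 FPKM at A1 and 1.07 to 1.42 at A2. At such levels the added 0.5 FPKM lowers the fold over A1, which was 2.45 to 2.94. The paper reports NAC and MYB factors as enriched in its group with a peak at A2. With so few listed genes, these counts cannot show that a family lacks a rise at A2.

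**Figure D3:**
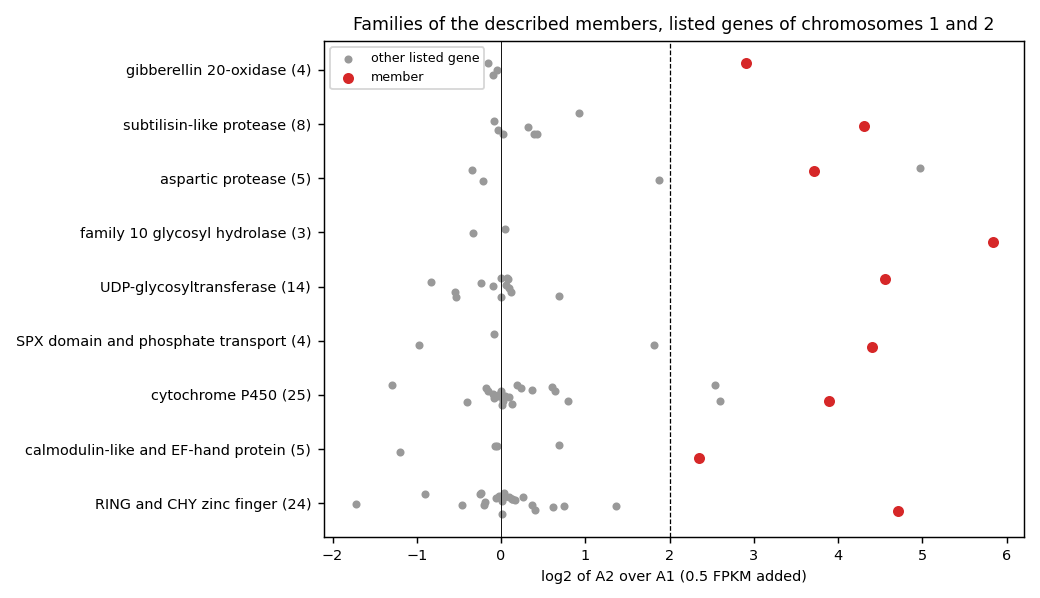
Log2 of A2 over A1 (0.5 FPKM added) for the listed genes of chromosomes 1 and 2 in the 9 families that hold a microspore-stage locus, with the number of listed genes in brackets. Red points are the microspore-stage loci, grey points the other listed genes, and the dashed line is 4-fold; in 7 of the 9 families no grey point lies beyond it.

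The neighbours of these loci were mostly flat. Along the order of gene IDs, 138 loci stood directly beside one of the 73, some of them with exactly the same span. Their median log2 of A2 over A1 was 0.00. Of the 138, 6 (4.35%) were at least 4-fold higher at A2 than at A1, of which 2 are the adjacent microspore-stage loci Sobic.010G259300 and Sobic.010G259400. Among the 136 that did not meet the limits themselves, 4 (2.94%) passed that fold, against 252 of 30696 such loci (0.821%) over the genome. The 4 were low in every stage. Sobic.003G015800, 479 bases from the span of Sobic.003G015700, had 0.280 FPKM at A1, 4.997 at A2 and 0.0315 at A3. The other 3 (Sobic.008G013400, Sobic.010G106700 and Sobic.010G190300) had 1.74 to 2.76 FPKM at A2, and all 4 were also more than 4-fold higher at A2 than at A3. They were chosen as neighbours, not by their values, but 4 loci are too few to describe a tendency. Of these 4, Sobic.010G190300 has exactly the span of Sobic.010G190200.

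**Figure D4:**
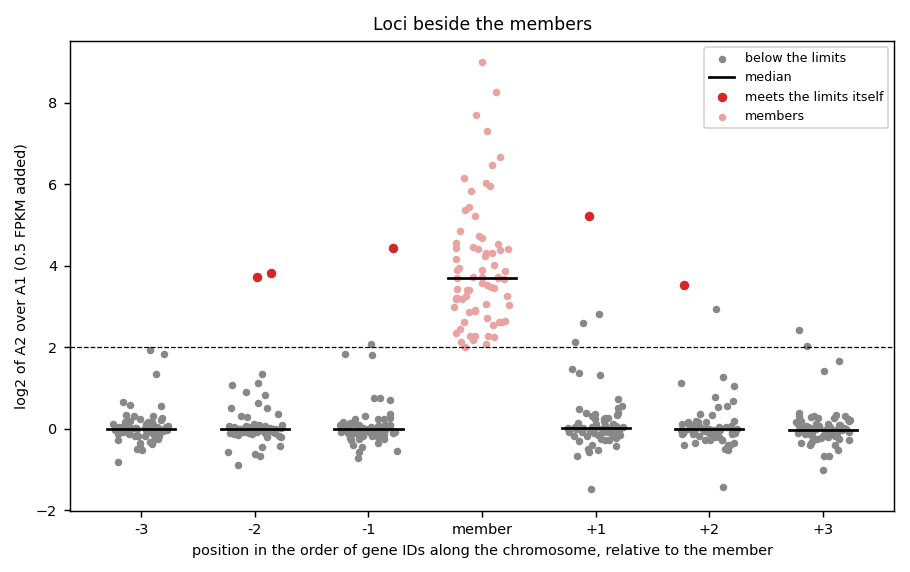
Log2 of A2 over A1 (0.5 FPKM added) for the 73 loci (centre, pale red) and for the loci up to 3 places before and after them in the order of gene IDs; black bars are medians and the dashed line is 4-fold. The median is close to 0 at each of the 6 neighbouring places, and dark red points are neighbours that meet the limits themselves.

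Within 100 kb of each other lay 4 pairs of microspore-stage loci, 8 loci in all. Sobic.010G259300 (0.313, 17.0 and 0.371 FPKM at A1, A2 and A3) and Sobic.010G259400 (2.80 FPKM at A1, 122 at A2, listed at 0 in A3) were 1065 bases apart on chromosome 10. Sobic.003G426700 (7.41, 34.0 and 2.13 FPKM) and Sobic.003G427000 (2.16, 20.7 and 2.21 FPKM) were 2977 bases apart on chromosome 3. The aspartyl protease locus Sobic.002G325800 lay 6094 bases from Sobic.002G326000 (2.39, 33.0 and 0.105 FPKM). Partners in these pairs differed from each other in their level at A1 or A2. In the widest pair, Sobic.007G153400 (1.02, 34.4 and 2.44 FPKM) lay 84269 bases from Sobic.007G154200, which was given above and was lower at A1. Whether paired genes share sequence was not examined here. Sobic.003G427000 and Sobic.002G326000 share their spans with other entries, so the distances given for their pairs are to the span of a group. The locus with the largest fold over A1, Sobic.001G266900, also lay 60777 bases from Sobic.001G266600, one of the loci left out by name (24.8, 357 and 0.598 FPKM).

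Some loci with no gene ID showed the same course, and 14 of them met the limits. Only 2 lay within 1000 bases of a locus described here. One started 105 bases beyond Sobic.010G259400 and had 13.9 FPKM at A1 and 362 at A2 and was listed at 0 in A3, as that gene was. The other started 276 bases beyond Sobic.006G067100 and had 7.55 FPKM at A1, 45.3 at A2 and 0.0289 at A3. Whether these are separate transcripts or parts of the neighbouring gene was not tested.

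Every numbered chromosome held such loci. Over all chromosomes there were 2.37 per 1000 loci above 0, with the most on chromosome 6 (10 of 2700, or 3.70 per 1000) and the fewest on chromosome 5 (2 of 2011, or 0.995 per 1000).

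The deposited spans need care for 2 kinds of loci. In 10 of the 73 (13.7%) a single value covers several gene IDs, against 585 (6.54%) of the 8948 loci at 10 FPKM or more at A2. Of the 9 loci at 10 FPKM or more at A3, 5 have several gene IDs, against 5 of the other 64. Which gene of such a locus gave its A3 value cannot be told apart. A second kind is a span shared by separate entries. For 19 of the 73 loci (26.03%) another locus with a gene ID had exactly the same start and end, a share of 28.4% over the 8948 loci, so that the position given is that of the group and not of 1 gene.

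The values themselves did not follow the shared span. The 19 loci shared theirs with 24 other entries, of which 23 were above 0 in some stage, with a median log2 of A2 over A1 of 0.03. Only 1 of the 24 was at least 4-fold higher at A2 than at A1, namely Sobic.010G190300 (0.0378, 2.76 and 0.0207 FPKM at A1, A2 and A3), which shares the span of Sobic.010G190200 (1.48, 20.4 and 0.112 FPKM). The folds of the other 23 over A1 lay between 0.792 and 2.19. The span of Sobic.006G097100, for example, is also that of an entry for Sobic.006G097200 and Sobic.006G097300 with 97.5 FPKM at A1, 100.3 at A2 and 43.7 at A3. Likewise Sobic.001G466400 shares its span with Sobic.001G466200, which was at 20.1, 18.8 and 15.4 FPKM. Of the 73 loci, 49 have 1 gene ID and a span that no other gene ID shares. Overlap with no RefSeq gene was found for 5 of the 73 (6.85%), against 10.9% of all loci, and overlap with a pseudogene only for 3 (4.11%), against 2.002%.

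Several loci lay close to the limits. Just inside the limit on A2 were Sobic.002G325800 at 10.6 FPKM, Sobic.004G157900 at 11.2 FPKM and the locus of Sobic.010G184400 and Sobic.010G184500 at 11.3 FPKM. Just outside it were Sobic.005G185000 at 9.39 FPKM, Sobic.002G346700 at 8.77 FPKM and Sobic.001G014000 at 8.74 FPKM. Folds over A1 of 4.04, 4.20 and 4.35 put Sobic.008G077500, Sobic.003G214400 and Sobic.003G426700 inside. Folds over A1 of 3.97, 3.92 and 3.89 put Sobic.010G001700, Sobic.003G360600 and Sobic.001G183100 outside, and the first of these was abundant (311, 1235 and 0.550 FPKM at A1, A2 and A3). Over A3, the locus of Sobic.002G355800 and Sobic.002G355900 (4.24), Sobic.009G239800 (4.68) and Sobic.009G181700 (4.89) were inside. Sobic.002G353800 (3.71), Sobic.003G078400 (3.59) and Sobic.001G285400 (3.24) were outside. The fold over A1 was the limit most often missed alone, by 799 loci, against 139 for the A2 level and 39 for the fold over A3.

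Markers of the cell types in the anther were read beside these loci. The 7 tapetum and pollen wall markers, named for their rice counterparts, summed to 2433 FPKM at A1, 5111 at A2 and 189 at A3, and none was at 0. The 4 genes of pollen wall synthesis among them (CYP703A3, OsPKS2, OsSTRL2 and OsACOS12) were highest at A2 and 2.30-fold to 3.14-fold over A1. CYP703A3, a hydroxylase of fatty acids for the wall, had 409 FPKM at A1, 942 at A2 and 0.921 at A3. The tapetal regulator TDR was also highest at A2, 1.93-fold over A1, while OsABCG26 and TIP2 were highest at A1. None of the 7 passed the 4-fold limit over A1. Sobic.001G491400 and Sobic.001G320300, which were left out by name, did pass it, at 5.81-fold and 25.9-fold. The paper lists their rice orthologs, CYP704B2 and OsNP1, for the outer pollen wall (exine). Their values at A1, A2 and A3 were 257, 1498 and 0.609 FPKM, and 10.8, 293 and 0.179 FPKM. All 6 meiocyte markers were highest at A1, with a sum of 195 FPKM at A1, 150.3 at A2 and 59.6 at A3, and DMC1, the meiotic recombinase, had 15.7, 8.05 and 3.14 FPKM. The 4 mature pollen markers summed to 0.124 FPKM at A1, 0.0793 at A2, where 3 of them were listed at 0, and 214 at A3. Thus 5 of the 7 tapetum markers, and their sum, were highest at A2 as the 73 loci were, and the part of tapetum content in the peak of the 73 loci was not tested.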

How the data were processed

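The authors trimmed reads with AdapterRemoval, removed ribosomal reads with Bowtie2 2.2.9, aligned the rest to the sorghum genome with STAR, estimated expression with StringTie 1.3.3b and ran pairwise stage comparisons in cuffdiff. The deposited FPKM values are linear, 1 per locus and stage, with the 3 replicates of a stage combined. A count-based or replicate-based test was therefore not run, and leaving out replicates was not possible.

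Folds and log2 values were computed here after adding 0.5 FPKM, with python 3.11.15, numpy 2.4.6, pandas 2.3.3 and matplotlib 3.10.9. Shares are over loci with a gene ID above 0 in some stage. The counting was tested on simulated data. The members, families and markers were chosen with earlier results of these data known. The members named are the 12 highest in A2, the 10 with the largest fold over A1 and over A3, those with a described family, the 3 nearest to each limit on either side, those within 100 kb of another member and those listed at 0. Other loci were named after their values were seen, where they share a span with, adjoin or belong to a family of a member. One was added to each deposited start, after which 736 starts equal one of the RefSeq annotation (NCBIv3), against 163 without it. RefSeq served only for overlaps and gene types. Families were assigned by text in the listed Arabidopsis or rice matches, leaving out inhibitors and matches of another enzyme class (1594 genes of chromosomes 1 and 2), a list that is not complete. Green tissue markers were 3 listed genes, none of them 4-fold higher in A2 than in A1. Promoter and protein sequences were not analysed here. Alternatives were other pseudocounts, minimums and folds, median-of-ratios scaling, quantile normalization and loci with 1 gene ID.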

Additional observations from a re-analysis of the deposited data

How the results depend on the processing

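No paired analysis was possible because the replicates were combined into 1 value per stage, and for the same reason no replicate could be left out. Counting error and replicate error are unknown, which matters most below 1 FPKM. The number of microspore-stage loci was 73. It became 76 with 0.1 FPKM added and 73 with 1 FPKM added, 106 and 64 with minimums of 5 and 20 FPKM in A2, 100 and 50 with folds of 3 and 8, 73 under median-of-ratios scaling, 75 under quantile normalization and 63 with 1 gene ID. With no minimum in A2 it became 212, since loci of low level then enter. All 73 loci remained with either pseudocount and under both scalings. Of 2 settings chosen after seeing the data, loci over at most 1 coding RefSeq gene gave 50, and loci with or without a gene ID gave 87. The median log2 of A2 over A3 was 5.67 with 0.5 FPKM added, 6.60 with 0.1 and 4.94 with 1, as follows from A3 values under 0.5 FPKM. The median log2 of A2 over A1 stayed between 3.40 and 3.75 in these and both scalings. Over loci with a mean of at least 1 FPKM, 8.31% were at least 4-fold higher in A2 than in A3, against 5.18% of all loci.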
